A study of Homo sapiens with 6 samples.

Results

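The genes described here are the numbered ZNF genes that Ishikawa cells express, 150 genes out of the 60670 in the deposited expression table. A gene was taken when its symbol consisted of ZNF followed by digits only and when its mean over the DMSO libraries was at least 3 TPM (a transcript's share of all transcripts in its library, taken per unit of transcript length and scaled to the same total in every library). The table held 479 rows with such a symbol, and 329 of them were under the threshold. The DMSO libraries are also one side of the treatment comparison, so levels in DMSO are given as a description, and counts over the 150 genes support nothing about them as a set.

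Ishikawa is an established human endometrial adenocarcinoma cell line. The study grew these cells in dishes and treated them with DMSO, the solvent, in 3 samples, or with 5 µM penfluridol, a long-acting antipsychotic and dopamine receptor antagonist, in 3 samples. Libraries of messenger RNA were prepared from total RNA, and the labels give no duration of treatment and no genetic change in any group. The labels do not say whether the 3 samples of a group were separate cultures. The p-values therefore measure only the spread between these samples, which may be technical.

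Most ZNF genes encode proteins with tandem C2H2 zinc fingers, small zinc-binding modules that usually read DNA sequence. The largest subgroup carries a KRAB domain, which recruits the co-repressor TRIM28 and, through it, the histone methyltransferase SETDB1 and HP1 proteins to silence transposable elements and other targets. Others carry a SCAN domain, which pairs such proteins with each other, and some bind RNA, ribosomes or spindle proteins and are no transcription factors. Many ZNF genes, above all those with a KRAB domain, lie in clusters on chromosome 19.

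Of the 150 genes, 73 had a KRAB entry among the deposited Pfam annotations, 72 had Pfam entries without KRAB, and 5 had no Pfam entry. A SCAN entry was present in 11. A C2H2-type zinc finger entry was present in 138. By position, 58 lay on chromosome 19, 19 on chromosome 16 and 14 on chromosome 7. Just inside the threshold were ZNF552 with a DMSO mean of 3.01 TPM, ZNF836 with 3.07 TPM and ZNF839 with 3.07 TPM. Just outside it were ZNF143 with 2.92 TPM, ZNF671 with 2.92 TPM and ZNF682 with 2.9 TPM.

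Promoter sequences from RefSeq (build GRCh38.p14; 300-base windows, from 250 bases before to 50 after a gene's start) were found for 128 of the 150 genes. The 3 given here belong to ZNF598 and ZNF513, with the largest increases, and ZNF638, with the lowest fitted difference. ZNF638 did not pass the test described below (limma, adjusted p = 0.124). No window was found for ZNF488, the 1 gene that fell. The 3 sequences are written 5′ to 3′ on the strand of the gene, and capitals mark the ETS core motif CCGGAAG or its reverse complement. The start is that of RefSeq, which lies over 1000 bases from the gene's start in GENCODE for 22 of the 128 windows, ZNF638 among them, whose RefSeq start lies 55221 bases inside the gene as GENCODE gives it. The windows are chr16:2009772-2010071 on the minus strand for ZNF598, chr2:27380685-27380984 on the minus strand for ZNF513 and chr2:71331532-71331831 on the plus strand for ZNF638.
ZNF598: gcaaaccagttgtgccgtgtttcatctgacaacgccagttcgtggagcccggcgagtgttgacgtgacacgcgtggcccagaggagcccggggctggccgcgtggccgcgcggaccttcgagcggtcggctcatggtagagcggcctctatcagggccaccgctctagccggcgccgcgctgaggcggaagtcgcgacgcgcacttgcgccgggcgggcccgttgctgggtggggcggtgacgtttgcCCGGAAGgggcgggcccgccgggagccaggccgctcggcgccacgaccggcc
ZNF513: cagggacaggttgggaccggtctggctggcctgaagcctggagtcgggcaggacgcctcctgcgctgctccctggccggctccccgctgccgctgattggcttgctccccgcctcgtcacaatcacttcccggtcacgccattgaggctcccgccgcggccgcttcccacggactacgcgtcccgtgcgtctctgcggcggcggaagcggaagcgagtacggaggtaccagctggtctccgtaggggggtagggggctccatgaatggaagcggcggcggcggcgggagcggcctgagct
ZNF638: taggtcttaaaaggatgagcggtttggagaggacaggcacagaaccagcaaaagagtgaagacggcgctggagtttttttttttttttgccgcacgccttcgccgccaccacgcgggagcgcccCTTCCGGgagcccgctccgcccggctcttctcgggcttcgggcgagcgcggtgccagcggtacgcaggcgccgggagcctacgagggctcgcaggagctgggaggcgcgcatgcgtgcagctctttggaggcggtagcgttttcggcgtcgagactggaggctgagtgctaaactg
The ETS core was held by the windows of ZNF598 and ZNF638 and not by that of ZNF513, and G and C made up 73% of the ZNF598 window, 70.7% of the ZNF513 window and 63.7% of the ZNF638 window.

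Searched on both strands, CCGGAAG was present in 51 of the 128 windows (39.8%), against 20.3% of the 8815 windows of all genes tested and 10.7% of all 27305 windows. It was present in 30 of 62 windows of genes with a KRAB entry (48.4%) and in 21 of 66 without one (31.8%). Among the genes that rose with penfluridol it was present in 7 of 17 windows (41.2%), and among the others in 44 of 111 (39.6%). The C/EBP-ATF composite motif TGATGNAA was in 1 window (0.781%, against 1.68% of genes tested), the E-box CACGTG in 9 (7.03%, against 10.5%) and the NRF1 motif in 3 (2.34%, against 2.42%). None of these 4 motifs contains another, and a match is a description of the window.

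In DMSO the genes were expressed at low levels, with a lowest mean of 3.01 TPM, a median of 6.48 TPM and a highest of 215 TPM. A mean under 10 TPM was found for 98 genes, from 10 to 50 TPM for 46, and of 50 TPM or more for 6. With penfluridol the means ran from 1.23 to 333 TPM with a median of 7.73 TPM. The 150 genes summed to 2017, 2104 and 2134 TPM in DMSO replicates 1 to 3 and to 2613, 2538 and 2588 TPM in penfluridol replicates 1 to 3, so the penfluridol sums lay above the DMSO sums. The genes without a KRAB entry summed to 1462, 1490 and 1605 TPM in DMSO and 2067, 1945 and 1948 TPM with penfluridol, and those with one to 555, 614 and 530 TPM and 545, 593 and 641 TPM, where the groups overlapped. In these bulk samples, fewer cells expressing a gene and less of its RNA per cell cannot be told apart.

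The sums are led by a few abundant genes. ZNF593, whose budding yeast counterpart takes part in export of the large ribosomal subunit, had 186, 191 and 268 TPM in DMSO and 403, 332 and 265 TPM with penfluridol. DMSO replicate 3 lay above penfluridol replicate 3, and the difference of 0.63 (SE 0.20) on the log2(TPM + 1) scale missed the threshold (limma, adjusted p = 0.0836). ZNF428 had 136, 128 and 166 TPM against 182, 166 and 156 TPM, and ZNF511 115, 123 and 161 TPM against 157, 122 and 115 TPM. The groups of both overlapped, with log2 differences of 0.23 (adjusted p = 0.248) and -0.01 (adjusted p = 0.968) in limma. ZNF787 rose from 62.2, 52.4 and 69.8 TPM to 119, 109 and 98.3 TPM, by 0.82 (SE 0.14, adjusted p = 0.0145). It missed the threshold in limma without DMSO replicate 1 (0.0729), penfluridol replicate 1 (0.0625) or penfluridol replicate 2 (0.0891). ZNF703, an oncogene of luminal breast cancer that acts with co-repressor complexes, rose from 57, 51 and 58.7 TPM to 74.4, 82.8 and 96.4 TPM, by 0.59 (SE 0.13, adjusted p = 0.0314). Leaving out any library but DMSO replicate 3 took ZNF703 over the threshold (limma adjusted p from 0.0585 to 0.136).

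The comparison of penfluridol with DMSO was fitted with limma on log2(TPM + 1) over the 12201 genes whose mean reached 1 TPM, and a gene is said to have risen or fallen when its Benjamini-Hochberg adjusted p was under 0.05. Of the 150 ZNF genes, 20 rose, where 9.75% of all genes tested rose, and 1 fell, where 3.48% of all genes tested fell. The penfluridol libraries all lay above the DMSO libraries for 53 genes (23.3% of all genes tested) and all below for 14 (13.6%), and they overlapped for 83. The median log2 difference was 0.12 (quartiles -0.40 and 0.43), against -0.04 over all genes tested. The counts depended on single libraries. Without DMSO replicate 3, 27 rose (13.9% of all genes) and 16 fell (18.5%), whereas 2 rose and 0 fell without DMSO replicate 1 (2.43% and 0.443% of all genes) and likewise without penfluridol replicate 2 (1.61% and 0.328%). With no filter on low genes 11 rose, and with the replicate number as a block 0 rose. Shares over all genes are not given for those fits, so these counts say nothing about the ZNF genes in particular. With median-of-ratios scaling of the TPM columns 16 rose (8.14%) and 7 fell (5.88%), with the median difference still 0.12.

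The largest increase was that of ZNF598 (ENSG00000167962, chromosome 16, 1997654 to 2009823, GRCh38), a ubiquitin ligase that senses collided ribosomes and marks ribosomal proteins. It had 27.2, 27.9 and 23.4 TPM in DMSO and 70.7, 67.6 and 95.7 TPM with penfluridol. Each penfluridol library held more than any DMSO library, and the means were 26.2 ± 2.44 and 78 ± 15.4 TPM (SD, n = 3 each). The log2 difference was 1.53 (SE 0.17, limma adjusted p = 0.00332). ZNF513 (ENSG00000163795, chromosome 2, 27377231 to 27380790), a regulator needed in the retina, rose from 9.92, 8.13 and 9.15 TPM to 22.4, 23.5 and 25.4 TPM. The groups lay far apart relative to their spread, at 9.07 ± 0.898 and 23.8 ± 1.53 TPM (SD, n = 3 each), and the log2 difference was 1.30 (SE 0.15, adjusted p = 0.0035). Of the 20 increases, these 2 kept an adjusted p under 0.05 with each of the 6 libraries left out in turn, with a highest value of 0.0294 for ZNF598 and 0.0427 for ZNF513.

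ZNF865, on chromosome 19 (55605405 to 55617269), had 3.51, 2.92 and 3.54 TPM in DMSO and 8.4, 8.65 and 10.2 TPM with penfluridol. It rose by 1.22 on the log2 scale (SE 0.18, limma adjusted p = 0.00868). ZNF524, its neighbour (55600022 to 55603138), which has been described to bind telomeric DNA, had 14.7, 13.3 and 18.2 TPM against 38, 36 and 31.2 TPM. It rose by 1.14 (SE 0.16, adjusted p = 0.00729), and neither gene's groups overlapped. Both missed the threshold without DMSO replicate 1 (adjusted p = 0.0567 for ZNF865 and 0.0511 for ZNF524) and without penfluridol replicate 2 (0.0671 and 0.0604).

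ZNF133, described as a transcriptional repressor and listed without a KRAB entry, had 8.99, 10.4 and 10 TPM in DMSO. With penfluridol it had 22.6, 22.8 and 17.3 TPM. It rose by 1.01 on the log2 scale (SE 0.17, limma adjusted p = 0.0117), and it missed the threshold without DMSO replicate 1 (0.0732), penfluridol replicate 1 (0.0594) or penfluridol replicate 2 (0.0904). ZNF467, which in mouse is linked to the choice between bone and fat cell fates, had 16.9, 15.4 and 21.4 TPM against 35.3, 35.4 and 34.2 TPM, the last 3 close together. It rose by 0.94 (SE 0.15, adjusted p = 0.0114), and it missed the threshold without the same 3 libraries (0.0702, 0.0548 and 0.0822). ZNF213, with a KRAB and a SCAN entry, had 5.84, 5.87 and 7.79 TPM against 13.2, 11.9 and 12.8 TPM. It rose by 0.87 (SE 0.17, adjusted p = 0.0215), and only leaving out DMSO replicate 3 kept it under the threshold (0.012, against up to 0.11 for the other 5).

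The 1 gene that fell was ZNF488 (ENSG00000265763, chromosome 10, 47365496 to 47384273), known in mouse as a partner of Olig proteins in the formation of oligodendrocytes. It had 4.99, 4.14 and 4.82 TPM in DMSO and 1.52, 1.87 and 2.04 TPM with penfluridol. The groups did not overlap, at 4.65 ± 0.45 and 1.81 ± 0.265 TPM (SD, n = 3 each), and the log2 difference was -1.01 (SE 0.20, limma adjusted p = 0.0214). It missed the threshold without DMSO replicate 1 (0.106), penfluridol replicate 1 (0.0803) or penfluridol replicate 2 (0.105). Of the 21 genes past the test, 19 missed it without DMSO replicate 1, 12 without DMSO replicate 2, 15 without penfluridol replicate 1, 19 without penfluridol replicate 2 and 10 without penfluridol replicate 3, whereas all 21 kept it without DMSO replicate 3.

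**Figure D1:**
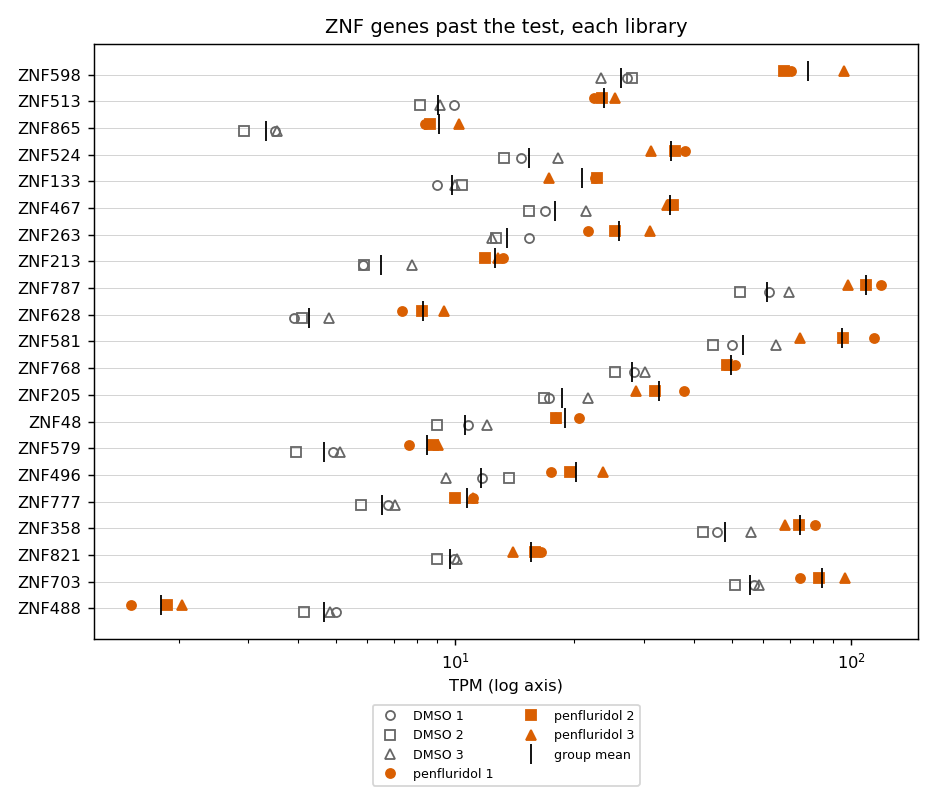
TPM on a log axis in each of the 6 libraries for the 21 ZNF genes past the test, with DMSO libraries as open and penfluridol libraries as filled symbols and a vertical bar at each group's mean. The 20 genes that rose have their penfluridol libraries to the right of their DMSO libraries without overlap, and ZNF488, at the bottom, has them to the left.

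Among the RNA-binding, ribosome and spindle proteins, 1 of 7 rose, ZNF598, and 0 fell, where 9.75% of all genes tested rose and 3.48% fell. ZNF622, a maturation factor of the large ribosomal subunit, had 32.7, 29.2 and 27.4 TPM in DMSO and 37.5, 42.4 and 41.1 TPM with penfluridol, without overlap, and a log2 difference of 0.43 (limma, adjusted p = 0.0687). ZNF207, a spindle assembly protein that stabilises the checkpoint protein BUB3, had 43.6, 51.4 and 23.6 TPM against 13.7, 15.9 and 23.1 TPM. Its DMSO replicate 3 nearly met penfluridol replicate 3, and its difference of -1.09 (SE 0.32) missed the threshold at an adjusted p of 0.0656. ZNF638, which recruits the HUSH silencing complex to unintegrated retroviral DNA, had 4.53, 9.85 and 1.67 TPM against 0.58, 1.5 and 1.61 TPM. DMSO replicate 3 lay beside the penfluridol libraries, and the difference of -1.32 (SE 0.51) had an adjusted p of 0.124. Without DMSO replicate 3, ZNF207 and ZNF638 were both among the genes that fell.

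Among the activators and core-promoter factors, 1 of 5 rose, ZNF263, and 0 fell, where 9.75% of all genes tested rose and 3.48% fell. ZNF263, which carries KRAB and SCAN entries, had 15.4, 12.7 and 12.4 TPM in DMSO and 21.7, 25.3 and 31 TPM with penfluridol. It rose by 0.89 on the log2 scale (SE 0.18, limma adjusted p = 0.0214), and it missed the threshold without DMSO replicate 1 (0.0719), DMSO replicate 2 (0.064), penfluridol replicate 2 (0.107) or penfluridol replicate 3 (0.058). ZNF384, a factor that binds runs of A and T, had 26.2, 30 and 20.1 TPM against 34.6, 34.2 and 52.5 TPM, without overlap, with a difference of 0.64 and an adjusted p of 0.0994. ZNF410, a factor known for regulating the chromatin remodeller gene CHD4, averaged 20.3 ± 3.3 TPM in DMSO and 20.4 ± 5.2 TPM in the treated samples (SD, n = 3 each).

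Among the proteins of co-repressor complexes, 1 of 5 rose, ZNF703, and 0 fell, where 9.75% of all genes tested rose and 3.48% fell. ZNF687, which forms a complex with ZNF592 and ZMYND8, had 14.2, 13.6 and 13.8 TPM in DMSO and 18.7, 19.9 and 23.2 TPM with penfluridol. Its groups did not overlap, and its difference of 0.53 (SE 0.14) just missed the threshold in limma (adjusted p = 0.0506). ZNF592 itself was at 4.37 ± 0.241 and 6.39 ± 1.69 TPM (SD, n = 3 each; difference 0.44, adjusted p = 0.198). ZNF217, a breast cancer oncogene that binds the CoREST complex, had 4.28, 7.61 and 2.1 TPM against 1.31, 2.2 and 1.96 TPM, with overlap, a difference of -0.90 and an adjusted p of 0.155.

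Of the KRAB proteins known for binding repeats or particular loci, 3 passed the level threshold, and 0 rose and 0 fell. The shares over all genes tested were 9.75% and 3.48%. ZNF93, a repressor of LINE retrotransposons, had 3.09, 4.5 and 1.73 TPM in DMSO and 0.93, 1.83 and 1.13 TPM with penfluridol, with overlap (log2 difference -0.80, limma adjusted p = 0.134). ZNF587, which binds primate retroelements, had 2.81, 3.62 and 3.55 TPM against 5.4, 3.93 and 3.99 TPM (0.33, adjusted p = 0.306). ZNF274, which brings SETDB1 to the 3′ ends of ZNF genes, had 11.9, 13.8 and 5.47 TPM against 7.76, 10.2 and 15 TPM (0.12, adjusted p = 0.844). The list of KRAB co-repressor and HUSH genes held 26 symbols, none of them a ZNF gene, and 25 were in the deposited table. Of the 20 genes tested, 0 rose and 0 fell, with a median of -0.27. TRIM28 averaged 561 ± 61.9 TPM in DMSO and 514 ± 25.5 TPM in the treated samples (SD, n = 3 each; difference -0.12, adjusted p = 0.48). HDAC2, a histone deacetylase, had the smallest p of these genes, with 26.2, 41.1 and 10.2 TPM against 5.31, 6.07 and 7.66 TPM (-1.69, SE 0.45, adjusted p = 0.0524), and PPHLN1, a HUSH subunit, followed with 36.8, 46.8 and 22 TPM against 15.6, 17.7 and 20.6 TPM (-0.88, adjusted p = 0.0774).

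Of the 73 genes with a KRAB entry, 5 rose (ZNF205, ZNF213, ZNF263, ZNF496 and ZNF777) and 0 fell, with a median log2 difference of -0.04. Of the 72 with Pfam entries but no KRAB, 15 rose and 1 fell, with a median of 0.35. The shares over all genes tested were 9.75% and 3.48%. Once the trend of every library with GC content and length was removed, 4 rose and 3 fell with KRAB (median -0.03). Among the 72 with other Pfam entries, 10 rose and 5 fell (median 0.10). With the trend removed, 10.0% of all genes tested rose and 8.90% fell. The 5 genes with no Pfam entry had 0 calls and a median of -0.19 before the removal. After it, 0 of the 5 rose and 2 fell, ZNF185 and ZNF207, with a median of -0.07. Median transcript GC content was 49.8% with KRAB and 58.2% without, so the classes also differed in base composition. Of the 11 genes with a SCAN entry 3 rose, with a median of 0.36.

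On chromosome 19, of the 38 KRAB genes there, 0 rose and 0 fell (median -0.09, median GC 47.9%), and of the 20 without KRAB 7 rose and 0 fell (median 0.38, median GC 62.7%), where 9.75% of all genes tested rose and 3.48% fell. After the same removal, 3 rose and 2 fell in each class, with medians of -0.04 and 0.05. In that fit 10.0% of all genes tested rose and 8.90% fell, and the difference between the classes was not tested. A run of 6 genes without KRAB at 55476332 to 55645622, ZNF628, ZNF579, ZNF524, ZNF865, ZNF580 and ZNF581, held 5 that rose, and its differences ran from 0.33 to 1.22 with a median of 0.82 (0.47 after the removal) at a median GC of 67.2%. The 1 that did not pass the test was ZNF580, at 26.8 ± 4.3 and 33.7 ± 2.11 TPM (SD, n = 3 each; limma adjusted p = 0.172). A run of 4 on chromosome 16 at 3112560 to 3409370, ZNF205, ZNF213, ZNF263 and ZNF174, held 3 that rose (median 0.83, after the removal 0.43, GC 60.7%). A run of 4 on chromosome 19 at 21082159 to 21556270, ZNF714, ZNF431, ZNF738 and ZNF429, held 0 that rose or fell, and its median turned from -0.53 to 0.08 with the removal (GC 43%). Members of such runs can share sequence, which was not compared here. How reads that fit several of them were assigned cannot be seen in TPM. Values of neighbouring genes such as ZNF28 and ZNF468, also on chromosome 19, are therefore uncertain.

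The differences ordered themselves by the GC content of the transcripts. Over the 150 genes the log2 difference correlated with transcript GC content at Pearson's r = 0.68 and Spearman's rho = 0.68, where all genes tested gave 0.52 and 0.60. These are correlations across genes measured in the same 6 libraries, given as a description. Among the 73 genes with KRAB r was 0.60, and among the 77 others 0.70. Of the 41 genes with a GC content of at least 60%, 16 rose, where 23.7% of all genes in that range rose, and of the 56 genes under 50%, 0 rose, where 1.30% of all genes in that range rose.

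In quintiles of GC content set over all genes tested, the lowest quintile (28.7% to 43.9%) held 20 of the ZNF genes, of which 0 rose and 0 fell, where 0.619% of all genes in that quintile rose and 4.46% fell. Their median difference was -0.63, against -0.68 for all genes there. The second quintile held 30 with 0 increases (1.65% of all genes there) and 0 decreases (4.54%) and a median of -0.37. The third held 33 with 1 increase (6.36%) and 1 decrease (3.67%) and a median of 0.03. The fourth held 23 with 3 increases (16.7%) and 0 decreases (2.85%) and a median of 0.35. The highest quintile (59.9% to 78.2%) held 44 with 16 increases, where 23.7% of all genes there rose, and 0 decreases (1.69%), and a median of 0.55 against 0.35 for all genes there. Within this quintile 3 of 12 genes with KRAB and 13 of 32 without KRAB rose, with medians of 0.46 and 0.55.

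**Figure D2:**
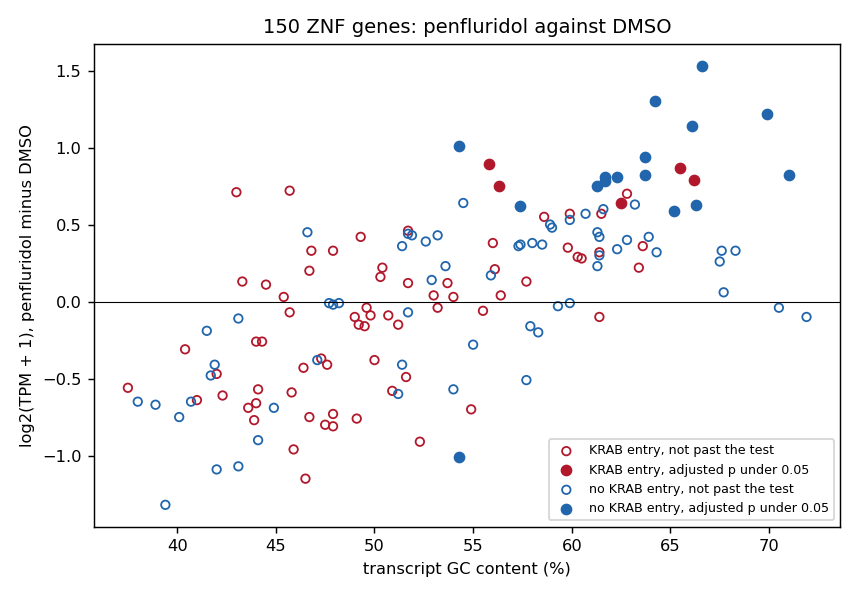
Log2 difference between penfluridol and DMSO on the log2(TPM + 1) scale against the transcript GC content in percent, 1 point for each of the 150 ZNF genes, filled where the adjusted p was under 0.05 and coloured by KRAB entry. The points climb from left to right (r = 0.68), and the filled points above 0 lie at a GC content over 54%.

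The DMSO libraries also differed among themselves with GC content. DMSO replicate 3 minus the mean of replicates 1 and 2 correlated with GC content at r = 0.50 over the 150 genes (0.57 over all genes tested), DMSO replicate 3 minus replicate 2 at r = 0.56, replicate 3 minus replicate 1 at 0.39, and replicate 2 minus replicate 1 at r = -0.54. Between DMSO replicates 3 and 2, 19 of the 150 genes (12.7%) differed by at least 1 on the log2 scale, against 22.9% of all genes tested. Between replicates 3 and 1 there were 5 such genes and between replicates 2 and 1 there was 1. Among the penfluridol libraries, r was between -0.31 and -0.19 and 2 to 9 genes differed by that much. Over the 150 genes the median of DMSO replicate 3 minus the mean of the other two was -0.07, and it was 0.17 after median-of-ratios scaling and 0.09 after removal of the GC trend, so its sign depends on the scaling.

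The genes with the widest range among the DMSO libraries were lowest in DMSO replicate 3. ZNF639 had 9.54, 14.2 and 2.74 TPM in DMSO and 3.39, 4.45 and 4.3 TPM with penfluridol, a DMSO range of 2.02 on the log2 scale. ZNF146, a protein made almost wholly of zinc fingers, had 5.13, 11.1 and 2.27 TPM against 0.76, 2.74 and 2.95 TPM, and ZNF664 25.2, 44.2 and 13 TPM against 13.4, 16.9 and 18.6 TPM. In ZNF639 and ZNF664 the lowest DMSO library lay under every penfluridol library, and in ZNF146 it lay under 2 of the 3. None of these passed the limma test (adjusted p = 0.311 for ZNF639, 0.198 for ZNF146 and 0.339 for ZNF664), nor did ZNF638 above, whose DMSO range was also 2.02. Over the 150 genes, DMSO replicate 3 correlated with the penfluridol libraries at Pearson's r of 0.916 to 0.931, with DMSO replicate 1 at 0.943 and with DMSO replicate 2 at 0.894. DMSO replicate 2 correlated with the penfluridol libraries at 0.819 to 0.839.

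**Figure D3:**
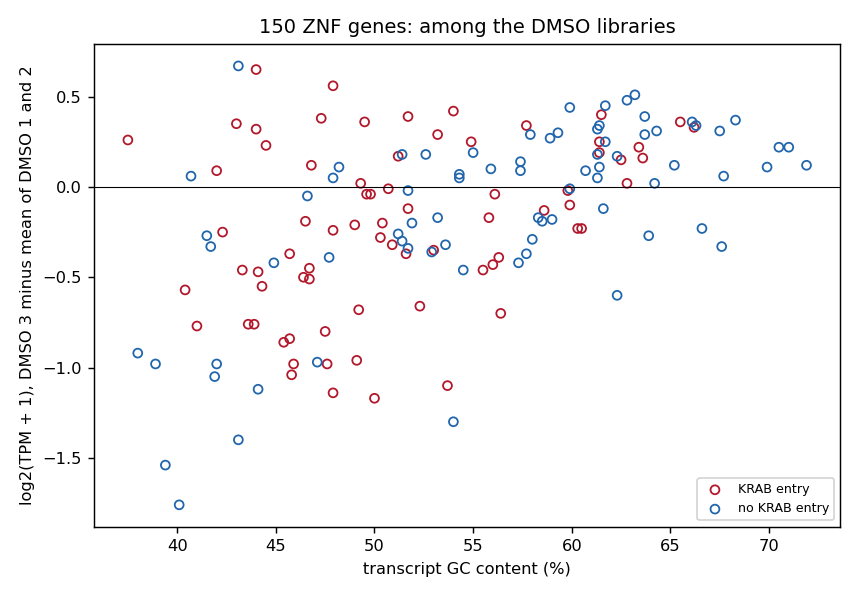
Difference of DMSO replicate 3 from the mean of DMSO replicates 1 and 2 on the log2(TPM + 1) scale against transcript GC content in percent for the 150 ZNF genes, coloured by KRAB entry. The points climb with GC content (r = 0.50), and most genes under a GC content of 50% lie below 0.

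Seen library by library, the ZNF genes of the lowest GC quintile had median deviations from the DMSO mean of 0.00, 0.33 and -0.44 in DMSO replicates 1 to 3 and of -0.79, -0.68 and -0.28 in penfluridol replicates 1 to 3. DMSO replicate 3 lay under penfluridol replicate 3. In the highest quintile the medians were 0.00, -0.12 and 0.12 in DMSO and 0.43, 0.44 and 0.54 with penfluridol, and there the groups did not overlap.

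**Figure D4:**
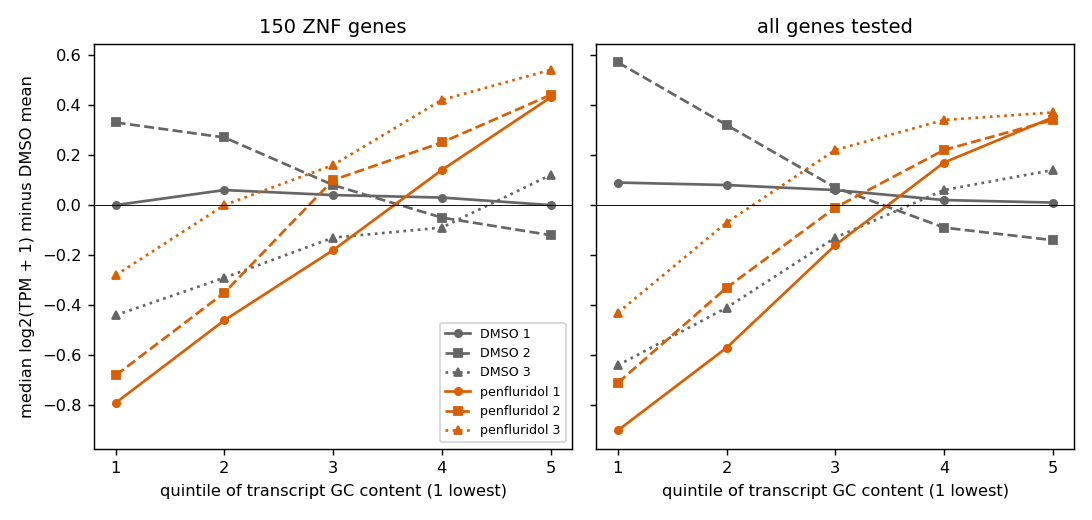
Median log2(TPM + 1) minus the DMSO mean in each library by quintile of transcript GC content, for the 150 ZNF genes on the left and all genes tested on the right. Lines of the penfluridol libraries and of DMSO replicate 3 rise from the lowest to the highest quintile and that of DMSO replicate 2 falls, in both panels.

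After removal of each library's smooth trend with transcript GC content and length, over all genes, 14 of the 150 ZNF genes rose (10.0% of all genes tested) and 10 fell (8.90%). The median difference was 0.02, against -0.01 over all genes, and the correlation of the difference with GC content was 0.10. Increases before and after the removal were shared by 10 genes, ZNF133, ZNF263, ZNF467, ZNF48, ZNF513, ZNF524, ZNF598, ZNF768, ZNF787 and ZNF865. ZNF598 then differed by 1.11 (limma, adjusted p = 0.00651), ZNF513 by 0.96 (adjusted p = 0.00235) and ZNF488 by -1.25 (adjusted p = 0.00322). ZNF205, ZNF213, ZNF358, ZNF496, ZNF579, ZNF581, ZNF628, ZNF703, ZNF777 and ZNF821 no longer passed, with ZNF213 at 0.44 (adjusted p = 0.0502) and ZNF703 at 0.16 (adjusted p = 0.315). Transcript GC content moved with these increases, and its part in them was not tested beyond this removal.

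Of the genes that passed after the removal alone, 4 rose and 9 fell. ZNF675, a KRAB gene with a GC content of 45.7%, had 9.62, 13.3 and 8.49 TPM in DMSO and 13.4, 17.1 and 23.5 TPM with penfluridol, and its difference was 0.72 (adjusted p = 0.0998) before and 1.10 (adjusted p = 0.00313) after the removal in limma. ZNF227, ZNF577 and ZNF740 were the other increases. ZNF207 had a difference of -0.46 after the removal (adjusted p = 0.0319), and ZNF185, ZNF414, ZNF552, ZNF618, ZNF627, ZNF76, ZNF837 and ZNF862 were the other decreases. ZNF76, a paralogue of the promoter factor ZNF143, had 20.9, 19.3 and 24.7 TPM against 20.3, 18.8 and 18.6 TPM, with overlap. Of the 20 co-repressor and HUSH genes tested, CBX3, HDAC1, HDAC2, PPHLN1 and TRIM28 fell after the removal and 0 rose. In that fit 8.90% of all genes tested fell and 10.0% rose. HDAC2 was at -1.05 (limma, adjusted p = 0.0149) and TRIM28 at -0.41 (adjusted p = 0.0243). In the deposited TPM the groups of CBX3, HDAC1 and TRIM28 overlapped, and those of HDAC2 and PPHLN1 did not. The list was not tested as a set. With 1 library left out in turn after the removal, the count of increases ran from 5 without penfluridol replicate 2 to 22 without DMSO replicate 3. Shares over all genes are not given for those fits.

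**Figure D5:**
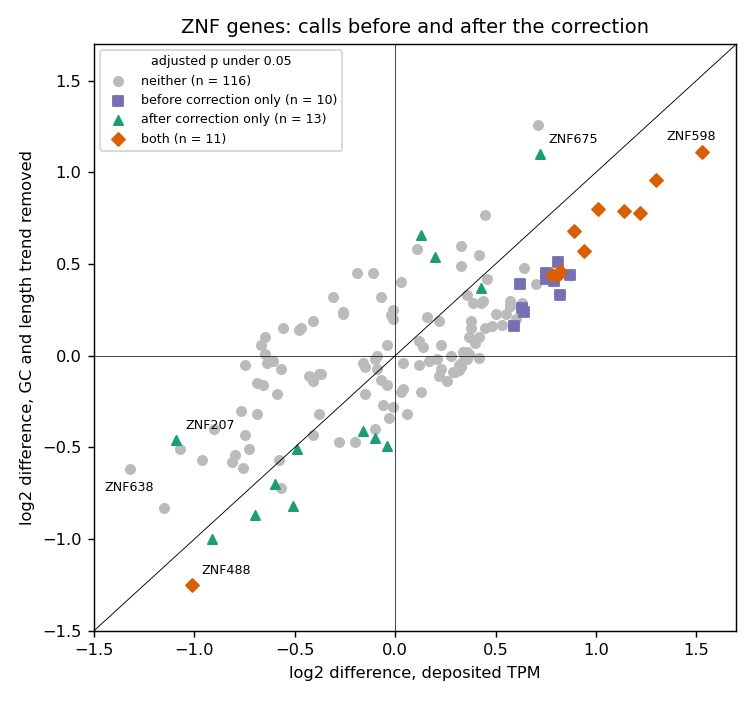
Log2 difference of each of the 150 ZNF genes in the deposited TPM, on the x axis, against the same after removal of the GC content and length trend, on the y axis, with the line of equality. Symbols mark an adjusted p under 0.05 in neither (116 genes), before the removal alone (10), after it alone (13) or both (11); ZNF598 stays far from 0 on both axes.

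Chosen by the mean of all 6 libraries instead, 143 ZNF genes passed 3 TPM, of which 20 rose and 1 fell (median 0.21), and chosen by the penfluridol mean, 128 passed, of which 21 rose and 0 fell (median 0.31), against 9.75% and 3.48% of all genes tested. Of the 108 ZNF genes tested under the DMSO threshold, 1 rose and 0 fell, with a median of -0.16. After the GC content and length removal 5 of them rose and 2 fell, with a median of 0.08. The shares over all genes tested were then 10.0% and 8.90%. Other zinc finger families with a DMSO mean of at least 3 TPM gave 0 calls of 6 for ZSCAN genes, 1 increase of 11 for ZBTB genes and 1 increase of 5 for ZFP genes. The genes outside the set whose profile over the 6 libraries was most like the mean profile of the 150 were DNMT1 (r = 0.992), IGSF3 (r = 0.991) and CUTALP (r = 0.99).

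Over the whole table the 6 libraries summed to 994165 to 997207 TPM, and TPM keeps no read counts, so the depth is unknown. Of 10 epithelial markers of this line, 8 reached a mean of 1 TPM, and the markers summed to 4098 to 5149 TPM in DMSO and 2850 to 3228 TPM with penfluridol. ESR1, the oestrogen receptor gene, was listed at 0 in all libraries but penfluridol replicate 3, where it had 0.33 TPM. Fibroblast markers summed to 2.5 to 3.04 TPM in DMSO and 1.87 to 5.08 TPM with penfluridol (1 of 6 reached a mean of 1 TPM; DCN and LUM at 0), leukocyte markers to 1.24 to 2.65 and 1.05 to 1.85 TPM (1 of 5; CD3E at 0), endothelial markers to 0.29 to 0.92 and 0.2 to 0.4 TPM (0 of 4) and erythroid markers to 5.92 to 7.92 and 2.76 to 8.06 TPM (2 of 4). Exons of several named genes overlap another gene's on the opposite strand, as ZNF598 does with AC005606.1, ZNF513 with SNX17, ZNF524 with FIZ1, ZNF428 with SRRM5 and ZNF511 with TUBGCP2. The sources used here do not say whether counting used strand, so reads of such pairs may be mixed. Some overlap a gene on the same strand, as ZNF511 does with ZNF511-PRAP1, ZNF263 with LINC00921, ZNF638 with AC007878.1 and ZNF664 with RFLNA. Strand would not separate the reads of those pairs.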

How the data were processed

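The deposited values are TPM, in which the authors gave every library nearly the same total (994165 to 997207); the header states no unit, and this one was read from those totals. The tools fastp and RSEM and the build GRCh38.p13 are named in the submitters' processing notes, whereas the sources used here give no versions, aligner, annotation or strand setting. Samples were grouped by the treatment in their labels, 3 per group. One line of the table was empty, and 0 columns of other samples were present.

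The 12201 genes whose mean reached 1 TPM were tested with limma 3.58.1 in R 4.3.3 on log2(TPM + 1), with a mean-dependent prior variance, no covariate and Benjamini-Hochberg adjustment over all of them; a fold change on this scale understates that of low genes. The code was tested on simulated data. Transcript GC content and length were taken from GENCODE (GRCh38), which matched 58452 of 60670 identifiers and 99.3% of the genes tested, and the trend removal used splines with 4 degrees of freedom in each library. KRAB, SCAN and finger classes come from the Pfam column of the deposited table, in place of the planned protein sequences, and fingers were not counted. Whether that column lists every KRAB domain was not checked, so a gene called without KRAB lacks the entry and may still encode the domain. The named genes are the largest non-overlapping increases and decreases past the test, the 5 highest in DMSO, those beside the level threshold, those with the widest DMSO range, the smallest p in each gene list and the genes of most alike profile; any others in the text were picked with their values known. The members and the gene lists were chosen with earlier results of these data known. Alternatives were another pseudocount, other filters, scaling and variance model, the GC and length removal, a replicate block, other member thresholds and leaving out each library.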

Additional observations from a re-analysis of the deposited data

How the results depend on the processing

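The labels do not say whether the replicate numbers pair the samples. Deviations of same-numbered libraries from their group means correlated at -0.00807, -0.00607 and -0.348. Differently numbered libraries gave -0.334 to 0.32, and pairing cannot be decided from these values. With the replicate number as a block, 0 of the 150 genes rose and 0 fell, 0 rose with or without KRAB, 0 without KRAB fell, and 0 activators, 0 co-repressor complex genes and 0 RNA, ribosome and spindle genes rose. The block together with the GC and length removal left 2 increases (1 with and 1 without KRAB), medians of 0.02 overall and 0.10 without KRAB, and 0 increases in each of these 3 lists. Pseudocount 0.1 gave 2 decreases (2 without KRAB), 1 decrease in the co-repressor and HUSH list and 2 increases among co-repressor complex genes. No filter gave 11 increases (2 with KRAB, 9 without) and 0 decreases (0 without KRAB), and 0 increases among co-repressor complex genes. Requiring 5 TPM or more in 3 or more libraries gave 2 decreases (2 without KRAB), medians of 0.34 overall and 0.21 with KRAB, 1 decrease in the co-repressor and HUSH list, 2 increases among co-repressor complex genes, and 2 increases and 1 decrease among RNA, ribosome and spindle genes. Median-of-ratios scaling gave 7 decreases (2 with KRAB, 5 without), 4 in the co-repressor and HUSH list and 1 among RNA, ribosome and spindle genes, 2 activator increases, 0 co-repressor complex increases and a DMSO replicate 3 gap of 0.17. The GC and length removal gave 10 decreases (3 with KRAB, 7 without), 5 in the co-repressor and HUSH list, 1 among activators and 1 among RNA, ribosome and spindle genes, 0 co-repressor complex increases, medians of 0.02 overall and 0.10 without KRAB, and a gap of 0.09. The 7 decreases without KRAB include ZNF185 and ZNF207, which have no Pfam entry. A DMSO mean of at least 1 TPM gave 250 genes and a median of -0.03, one of at least 10 TPM 12 increases, 0 decreases and 0.23, and choice by the penfluridol mean 0 decreases and 0.31. With each library left out, alone or after the GC and length removal (the latter chosen after seeing the data; 6, 9, 22, 7, 5 and 16 increases in the order DMSO replicates 1 to 3 and penfluridol replicates 1 to 3, with, without KRAB, 6 increases without DMSO replicate 2, 6 decreases without DMSO replicate 3 or penfluridol replicate 3 and a median of 0.12 without penfluridol replicate 1), increases ran from 2 to 27, decreases from 0 to 16 and the median from 0.03 to 0.19. With KRAB these were 0 to 10 (0 to 6 without the removal), 0 to 7 and -0.12 to 0.07, and without KRAB 2 to 21, 0 to 9 and 0.08 to 0.33. In the lists they ran from 0 to 1 and 0 to 7 for co-repressor and HUSH genes, 1 to 2 and 0 to 2 for RNA, ribosome and spindle genes, 0 to 3 and 0 to 1 for co-repressor complex genes, 0 to 0 and 0 to 1 for repeat and locus binding genes, and 0 to 1 and 0 to 0 for activators. Of the named genes, ZNF428 changed sign after the GC and length removal (-0.07, with the block -0.07, and -0.11, -0.09, -0.02, -0.13, -0.07 and -0.01 with each library left out in the same order), ZNF511 without DMSO replicate 3 (0.13), penfluridol replicate 2 (0.03) or penfluridol replicate 3 (0.08; range over the 6 libraries -0.15 to 0.13), and ZNF639 after the removal without DMSO replicate 1 (0.07), DMSO replicate 2 (0.11) or penfluridol replicate 3 (0.03). The cause of these changes was not tested. No share over all genes stands beside the counts in this section, so they say nothing about the ZNF genes in particular. How many of the 150 genes passed the 5 TPM filter is not given. TPM keeps no depth, so counting error could not be given.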
